A study of Mus musculus with 3 samples.

Results

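The transcripts of 46 lysosomal genes were followed in single cells sorted from sham-operated and infarcted mouse hearts. The genes comprised 12 proteases, 14 other hydrolases, their activators and lipid-handling proteins, 5 membrane proteins or channels, 3 transcription factors and 12 subunits or accessory proteins of the vacuolar proton pump. They were chosen by function, with earlier results of these data known, and all 46 were among the 54752 gene symbols counted. Levels were read from 2351, 3453 and 4744 cells of 3390, 4511 and 5783 barcodes in the 3 libraries, those with more than 500 and fewer than 30000 unique molecular identifiers (UMIs), more than 500 and fewer than 5000 genes and a mitochondrial share below 10%. C57BL/6 pups had sham or myocardial infarction (MI) surgery, by ligation of the left anterior descending artery, on postnatal day 10 (P10), and hearts were taken 3 days later, at P13. CD45+F4/80+7AAD– cells of the infarct and border zones were sorted, which gated out dead cells. P10-sham_vehicle and P10-MI_vehicle received vehicle, and P10-MI_SB225002 was infarcted and received SB225002, an antagonist of the chemokine receptor CXCR2. No engineered allele is given for any group. Each condition was 1 library of cells pooled from several hearts, so no test between conditions was possible. Intervals given for differences between libraries cover counting error only, and library and condition cannot be told apart.

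Lysosomes are the acidic compartments in which cells break down what they engulf and their own worn components. A vacuolar ATPase, built from a membrane sector (V0 subunits) and a catalytic sector (V1 subunits), pumps protons into the lumen, and most cathepsins, glycosidases and lipases work at the pH that results. Transcription factors of the MiT/TFE family, here Tfeb, Tfec and Mitf, are known to bind an E-box, CACGTG, near the start of many lysosomal genes. Cardiac macrophages carry large lysosomal loads, and after infarction they clear dead myocytes, neutrophils and matrix.

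RefSeq promoter windows (GRCm38.p6, the release of the mm10 assembly) were at hand for 38 of the 46 genes. The E-box CACGTG, which reads the same on both strands, lay in the 250 bases before a start of 12 of these 38 genes (31.6%), against 1854 of 27025 genes in all (6.86%). Genes with several starts counted if any window matched, and in Ctsa and Lgmn 1 of 2 windows did. The longer form TCACGTGA, which contains it, was found in 5 of the 38 (13.2%) and in 0.907% of all genes. The related CATGTG, searched on both strands, was found in 5 of the 38 (13.2%) and in 13.8% of all genes. The E-box genes were Ctsa, Ctsd, Ctsf, Ctsl and Lgmn among the proteases, Gaa, Gla and Glb1 among the glycosidases, Lamp1 and Mcoln1 in the membrane, and Atp6v0b and Atp6v1a in the pump. A match describes the letters of the window only.

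Of the 6 genes that passed a log2 ratio of 0.5 between libraries in C1q+ macrophages, 5 had a window, and these are shown 5′ to 3′ towards the start, with CACGTG in capitals. They are chr7:142387828-142388077 (minus strand) for Ctsd, chr13:64370521-64370770 (minus strand) for Ctsl, chrX:134601006-134601255 (minus strand) for Gla, chr8:3500269-3500518 (plus strand) for Mcoln1 and chr3:95526536-95526785 (plus strand) for Ctss. Atp6v0d2 is the other one.
Ctsd: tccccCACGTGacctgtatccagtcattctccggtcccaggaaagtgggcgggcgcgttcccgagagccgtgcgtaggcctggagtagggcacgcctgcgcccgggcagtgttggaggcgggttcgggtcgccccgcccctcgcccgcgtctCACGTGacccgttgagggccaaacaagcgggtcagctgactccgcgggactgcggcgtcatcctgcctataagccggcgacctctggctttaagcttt
Ctsl: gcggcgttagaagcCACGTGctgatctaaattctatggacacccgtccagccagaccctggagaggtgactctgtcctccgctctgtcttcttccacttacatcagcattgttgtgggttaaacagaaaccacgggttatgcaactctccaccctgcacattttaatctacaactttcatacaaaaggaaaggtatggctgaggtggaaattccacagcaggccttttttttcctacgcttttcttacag
Gla: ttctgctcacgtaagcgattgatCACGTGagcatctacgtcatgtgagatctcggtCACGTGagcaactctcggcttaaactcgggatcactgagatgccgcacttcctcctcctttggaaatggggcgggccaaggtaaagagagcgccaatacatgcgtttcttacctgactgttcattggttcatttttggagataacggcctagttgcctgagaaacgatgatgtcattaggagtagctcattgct
Mcoln1: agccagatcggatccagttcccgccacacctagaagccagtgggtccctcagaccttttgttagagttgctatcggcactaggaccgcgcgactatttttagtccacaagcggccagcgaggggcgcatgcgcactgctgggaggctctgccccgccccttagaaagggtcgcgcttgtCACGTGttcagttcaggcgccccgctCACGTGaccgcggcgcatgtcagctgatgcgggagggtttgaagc
Ctss: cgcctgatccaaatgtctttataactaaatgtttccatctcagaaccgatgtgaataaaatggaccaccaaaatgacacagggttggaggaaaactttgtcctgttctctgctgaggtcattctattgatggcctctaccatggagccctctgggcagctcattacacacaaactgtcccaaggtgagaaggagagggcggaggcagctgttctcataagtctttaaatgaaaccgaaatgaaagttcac
The first bases of the E-boxes were 245 and 98 bases before the start in Ctsd, 236 in Ctsl, 227 and 194 in Gla, and 71 and 45 in Mcoln1. The Ctss window held none.

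Cells were gated on marker genes that are not among the 46, with limits set after the marker distributions had been seen. C1q+ macrophages, which carried C1qa, C1qb and C1qc, numbered 1979 in P10-sham_vehicle, 2227 in P10-MI_vehicle and 2783 in P10-MI_SB225002. Among them, C1q+ Gpnmb+ Spp1+ cells numbered 2, 92 and 407, and C1q+ Lyve1+ Folr2+ cells numbered 494, 548 and 396, in the same order. Ly6c2+ monocytes numbered 10, 149 and 219, and neutrophils 19, 68 and 122. Fibroblasts (71, 196 and 155) and endothelial cells (36, 54 and 161) were present although CD45+ sorting should remove them. The median cell held 8521, 6400 and 5654 UMIs, and the median mitochondrial share was 5.04%, 4.36% and 3.45%, so depth and RNA quality moved with the conditions. Of the kept barcodes, 2257 occurred in 2 or more libraries, and 45.5% to 56.7% of such pairs fell in the same gate, against 42.6% to 56.1% of all pairs of cells. Cells that met the Ly6c2+ monocyte gate and also the neutrophil or the Ace+ monocyte gate were counted in the latter. Cells that met other combinations of type gates were left out. With those that met no gate or missed the C1q limits, they numbered 202, 624 and 1114. C1q+ cells that met several subset gates were kept and counted with the C1q+ cells that met no subset gate.

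In C1q+ macrophages the 46 genes together made up 16237 counts per 1000000 UMIs (CPM) in P10-sham_vehicle, 19221 in P10-MI_vehicle and 23136 in P10-MI_SB225002. The sum thus stood 1.18-fold higher after MI than after sham surgery (log2 ratio 0.24, 95% interval 0.24 to 0.25) and 1.20-fold higher again in the SB225002 library (0.27, 0.26 to 0.27). Cell by cell, the median share of UMIs was 1.54% (quartiles 1.27% and 1.87%), 1.72% (1.39% and 2.16%) and 2.07% (1.61% and 2.69%). Among genes counted at 100 UMIs or more in the 2 libraries together, 40 of 45 members lay above 0 for MI over sham, against 39.0% of all such genes, with a median log2 ratio of 0.15 against -0.05. For SB225002 over vehicle, 33 of 46 lay above 0, against 46.2% of all such genes, with a median of 0.16 against -0.03. The 2 ratios share the P10-MI_vehicle library.

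**Figure D1:**
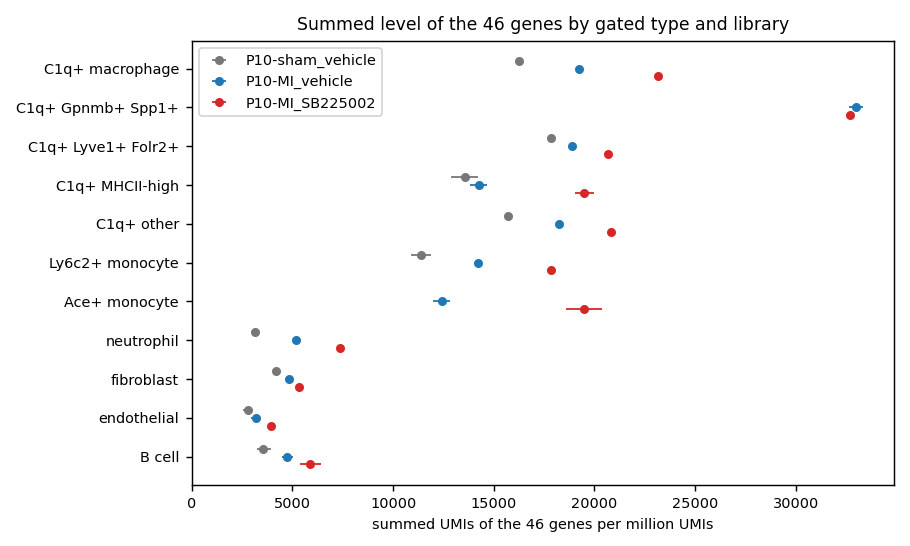
Summed CPM of the 46 genes (x axis) in each gated type (y axis), with 1 point per library and bars for the exact 95% counting interval. The C1q+ macrophage points run from 16237 to 23136, the C1q+ Gpnmb+ Spp1+ points lie at 32994 and 32702, and neutrophils, fibroblasts, endothelial and B cells reach at most 7389.

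Over all kept cells the sums were 15069.7, 16193 and 20629.7 CPM. There, 5 of 46 genes stood higher by a log2 ratio of at least 0.5 after MI, where 9.97% of all genes did, and 0 lower, where 5.34% did. With SB225002, 8 stood higher (5.87% of all genes) and 1 lower (8.84%). In C1q+ macrophages, of the 45 genes, 4 stood higher by that much after MI, where 4.23% of all genes did, and 0 lower, where 2.68% did. In the SB225002 library 5 of 46 stood higher than with vehicle, where 5.59% of all genes did, and 1 lower, where 6.9% did. The genes past the limit upwards were Ctsd, Ctsl, Gla and Atp6v0d2 in both steps and Ctss in the second.

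The 12 proteases, most of them cathepsins, gave 48.8% of the summed UMIs in P10-sham_vehicle, 51.0% in P10-MI_vehicle and 53.8% in P10-MI_SB225002. Ctsd, the aspartic protease that degrades bulk protein and activates other hydrolases, stood at 849, 1469.9 and 2414 CPM. Its log2 ratio was 0.79 (0.76 to 0.82) for MI over sham and 0.72 (0.69 to 0.74) for SB225002 over vehicle. Ctsl, a cysteine protease, stood at 297, 499.7 and 799.7 CPM, with log2 ratios of 0.75 (0.70 to 0.80) and 0.68 (0.64 to 0.72). Both were lowest in the sham library and highest in the SB225002 library.

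Ctss, a cysteine protease that trims the invariant chain of MHC class II, read 896, 1162 and 1691 CPM, with log2 ratios of 0.38 (0.35 to 0.41) and 0.54 (0.51 to 0.57). Ctsb, a cysteine protease of wide range, read 2076, 2593 and 2925 CPM. Its log2 ratios, 0.32 (0.30 to 0.34) and 0.17 (0.16 to 0.19), stayed under the limit. Ctsc, which activates granule proteases, read 1099, 1136 and 1092 CPM, and Tpp1, a tripeptidyl peptidase, 202, 218 and 210.3. Ctsf, a cysteine protease, read 38.9, 37.9 and 28.6, a log2 ratio of -0.40 (-0.58 to -0.23) in the second step. Lgmn, the asparaginyl endopeptidase that processes cathepsins, read 1295, 1347 and 1601 CPM, and Ctsk, the collagen-degrading cathepsin of osteoclasts, rested on only 23, 55 and 79 UMIs. The other 3 proteases, Ctsa, Ctsh and Ctsz, had log2 ratios of 0.15 (Ctsz) to 0.37 (Ctsh) after MI and of 0.17 (Ctsa) to 0.45 (Ctsz) with SB225002.

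**Figure D2:**
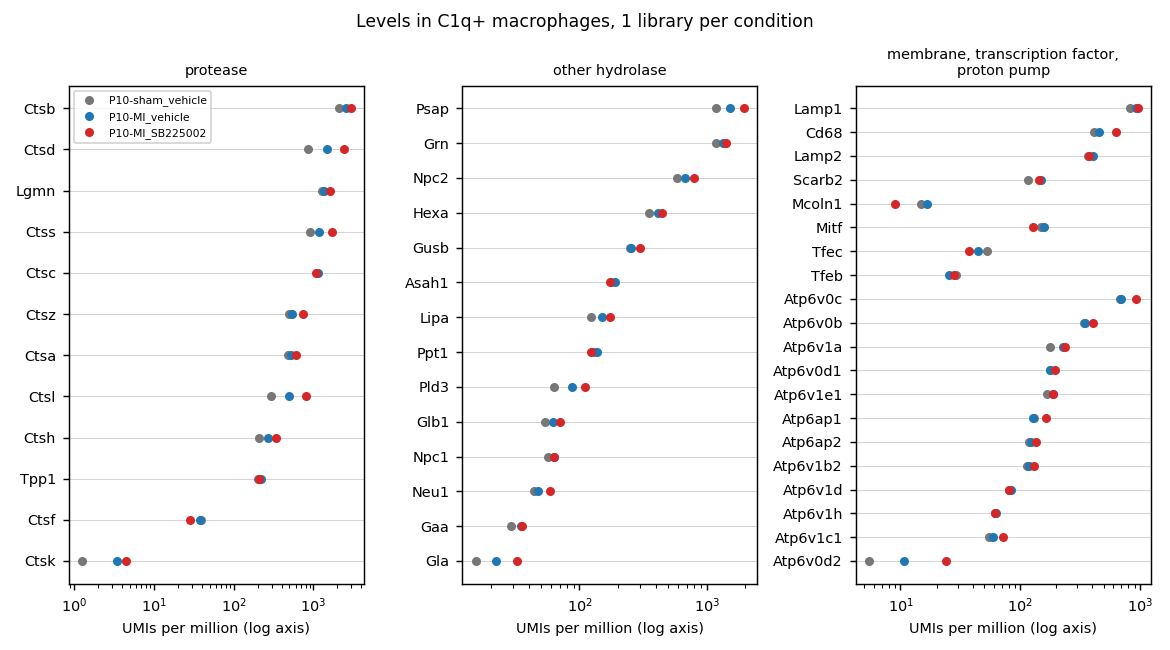
CPM (log x axis) of each of the 46 genes in C1q+ macrophages, ordered by role, with 1 point per library. Ctsd, Ctsl, Gla and Atp6v0d2 step to the right from sham through MI to SB225002, while Mcoln1 drops from 16.7 to 9.04 in the SB225002 library.

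All 14 hydrolases, activators and lipid-handling genes lay above 0 for MI over sham, and 12 of 14 for SB225002 over vehicle, but their ratios were small, with medians of 0.22 and 0.19. Gla, the alpha-galactosidase whose loss causes Fabry disease, was the one past the limit, at 15.2, 22.1 and 32.1 CPM. Psap, the precursor of the saposins that help sphingolipid hydrolases, read 1186, 1530 and 1966 CPM, with log2 ratios of 0.37 (0.34 to 0.39) and 0.36 (0.34 to 0.39). Grn, the precursor of the granulins, read 1180.3, 1349 and 1415. Asah1, the acid ceramidase, and Ppt1, a thioesterase that removes palmitate from proteins, were the 2 below 0 in the second step, at -0.12 (-0.20 to -0.05) and -0.15 (-0.23 to -0.06). The other 9, Hexa, Gaa, Glb1, Gusb, Lipa, Npc1, Npc2, Neu1 and Pld3, had log2 ratios of 0.01 (Gusb) to 0.45 (Pld3) after MI and of 0.01 (Npc1) to 0.36 (Pld3) with SB225002. Lipa read 123, 152 and 174 CPM, and Npc2, which carries cholesterol out of the lumen with the membrane protein Npc1, read 582, 680.1 and 801.

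The membrane proteins did not move together. Cd68, a heavily glycosylated macrophage protein of the lysosomal membrane, read 412, 452 and 626 CPM, and Lamp1, a main coat protein of that membrane, read 826, 922 and 955. Lamp2, its relative, read 366, 405 and 375, and Scarb2 117, 149 and 143. Mcoln1, the TRPML1 channel that releases lysosomal calcium, read 14.8, 16.7 and 9.04, the one gene past the limit downwards (log2 ratio -0.89, -1.18 to -0.60, for SB225002 over vehicle). It was lower in the SB225002 library within the Lyve1+ Folr2+ cells (19.0 to 10.9 CPM, from 71 and 27 UMIs) and within the remaining C1q+ cells outside the 3 subsets (16.8 to 8.61), and Gpnmb+ Spp1+ cells read 9.34 and 8.85 from only 9 and 31 UMIs (log2 ratio -0.08, -1.18 to 1.18). Whether the subsets differ in this was not tested.

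The 3 transcription factors stayed within the limit in C1q+ macrophages. Tfec read 52.6, 44.2 and 37.3 CPM in C1q+ macrophages, with log2 ratios of -0.25 (-0.39 to -0.11) and -0.24 (-0.40 to -0.09). Mitf read 149, 159 and 129, and Tfeb 28.8, 25.6 and 28.2. The counting intervals of Tfeb overlapped in all 3 libraries.

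Of the 12 pump genes, Atp6v0d2 alone passed the limit. This form of the V0 d subunit, known from osteoclasts, read 5.46, 10.6 and 24.1 CPM from 100, 168 and 427 UMIs, with log2 ratios of 0.96 (0.59 to 1.33) and 1.18 (0.92 to 1.45). Atp6v0d1, the widely expressed form, read 179, 178 and 193 CPM. Atp6v0c, the proteolipid of the membrane ring, read 674, 697 and 934, and Atp6v1a, the catalytic subunit, read 178, 227 and 239. The other 8 pump genes, Atp6v0b, Atp6v1b2, Atp6v1c1, Atp6v1d, Atp6v1e1, Atp6v1h, Atp6ap1 and Atp6ap2, had log2 ratios of -0.05 (Atp6ap1) to 0.16 (Atp6v1e1) after MI and of -0.04 (Atp6v1d) to 0.38 (Atp6ap1) with SB225002. The median log2 ratio of the 12 was 0.06 after MI and 0.13 with SB225002.

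Marker genes of other cells and states moved with the libraries. The 3 Arg1+ markers summed to 3.06, 185 and 594 CPM in C1q+ macrophages, and the 4 of erythrocyte RNA to 119, 14.1 and 12.99. The 3 genes Gpnmb, Spp1 and Fabp5 summed to 182, 1889 and 7244 CPM in C1q+ macrophages, the 7 Ly6c2+ monocyte markers to 2190.2, 2105 and 1050.1, and the 9 neutrophil markers to 204, 602 and 943, with every gene of these 5 lists detected in all 3 libraries. The part of these 5 lists in the differences was not tested. The 7 monocyte markers were also carried by resident-type cells. They summed to 3391, 3808 and 2274 CPM in Lyve1+ Folr2+ cells. In the C1q+ cells outside the subsets they summed to 1791, 1636 and 916. When the subsets were given the shares they had in P10-MI_vehicle, the summed log2 ratio for SB225002 over vehicle was 0.16. For MI over sham it was 0.18, but from 3 of the 4 subsets, without the Gpnmb+ Spp1+ cells, so it does not cover the same cells as the unweighted 0.24. Atp6v0d2 then went from 1.18 to 0.19 for SB225002 over vehicle, Ctsl from 0.68 to 0.24, Ctsd from 0.72 to 0.47 and Mcoln1 from -0.89 to -0.86. With these shares, 0 of the 46 stood higher by 0.5 in the second step, where 5.72% of all genes did. After each cell was thinned to 1000 UMIs, the summed log2 ratios were 0.21 and 0.28.

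Between the 2 MI libraries, the sum of the Gpnmb+ Spp1+ cells was 32994 CPM in P10-MI_vehicle and 32702 in P10-MI_SB225002 (log2 ratio -0.01, -0.03 to 0.01), and 2 of 43 genes stood higher by 0.5 (11.0% of all genes did) and 0 lower (6.84%). Atp6v0d2 was one, at 49.8 and 93.9 CPM (0.92, 0.48 to 1.38). In Lyve1+ Folr2+ cells the sums were 17826, 18883 and 20672, and after MI 0 of 44 genes stood higher by 0.5 (2.57% of all genes did) and 0 lower (2.55%). With SB225002, 2 of 42 stood higher (9.59%) and 1 lower (9.5%), which was Mitf. The 2 higher were Ctsd, from 1166 to 1709.6 CPM, and Cd68, from 413 to 619.98. In the C1q+ cells outside the 3 subsets the sums were 15698, 18256 and 20838, and Ctsd read 815, 1314 and 1928. There, 3 of 45 genes stood higher after MI (3.62% of all) and 0 lower (2.55%), and with SB225002 1 stood higher (4.89%) and 1 lower (4.83%).

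The MHCII-high C1q+ cells, 13, 42 and 48 in number, had the widest SB225002 ratio of the sum among the subsets. Their sums were 13553, 14245 and 19506 CPM, a log2 ratio of 0.07 (-0.01 to 0.16) after MI and 0.45 (0.40 to 0.51) with SB225002. After MI 1 of 16 genes stood higher by 0.5 (7.68% of all genes) and 0 lower (6.54%), and with SB225002 10 of 22 stood higher (12.6%) and 1 lower (12.4%). Ctsd read 545 and 1484 CPM in the 2 MI libraries (1.45, 1.20 to 1.70) and Ctsl 174 and 386 (1.15, 0.69 to 1.62). The Gpnmb, Spp1 and Fabp5 sum in these cells was 277, 174 and 1377 CPM, and the 9 neutrophil markers summed to 143, 2769 and 434. The part of these in the difference was not tested.

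Ly6c2+ monocytes repeated the order of the sums at a lower level, with 11395, 14233 and 17826 CPM, which was 70.2%, 74.0% and 77.05% of the C1q+ macrophage sum of the same library. The sham value rests on 10 cells. In this gate the Gpnmb, Spp1 and Fabp5 sum was 147, 3840 and 9604 CPM, and the 9 neutrophil markers, of which S100a8 and S100a9 are 2, summed to 58705, 16189 and 21825, above the 7 monocyte markers themselves (6653, 6171 and 5801). Their part in the member sums was not tested. With SB225002, 11 of 40 genes stood higher by 0.5 (10.5% of all genes did) and 0 lower (10.2% did), among them Ctsl, from 468 to 978 CPM, and Ctsd, from 822 to 1330.2. Neutrophils held 3142, 5202 and 7389, and fibroblasts 4192, 4823 and 5305. In the neutrophil gate the Gpnmb, Spp1 and Fabp5 sum was 165, 1049 and 6238 CPM and the neutrophil markers summed to 324380, 280034 and 255818, and the part of these in the member sums was not tested. Neutrophils, fibroblasts, endothelial and B cells carried 16.5% to 31.9% of the macrophage sum of their library, while their C1qa, C1qb and C1qc together, which their gate capped, stood at 0.514% to 1.93% of the macrophage level. The sums in those cells were lowest in the sham library and highest in the SB225002 library, as in macrophages, and the part of free RNA in these levels was not tested.

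To compare cell types, counts were summed per library and type, and edgeR's quasi-likelihood test was run over all genes with the library as a block and p-values adjusted by the Benjamini-Hochberg method. Between C1q+ Gpnmb+ Spp1+ and C1q+ Lyve1+ Folr2+ macrophages, 18 of the 46 genes were higher and 1 lower in the former, where 6.68% of 11462 genes were higher and 6.62% lower. The P10-sham_vehicle library had 2 Gpnmb+ Spp1+ cells, which were not used, so the difference rests on the 2 MI libraries. Fewer genes passed without P10-MI_vehicle or without P10-MI_SB225002. The median log2 fold of the members was then 0.37 and 0.42, against -0.02 and -0.06 for all genes. Each of these fits has 1 Gpnmb+ Spp1+ sample, which is assumed to vary like the other cell types. With no composition scaling, which moved the median log2 fold of all genes from -0.04 to -0.24, 13 were higher (4.55% of all genes) and 1 lower (13.4%).

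**Figure D3:**
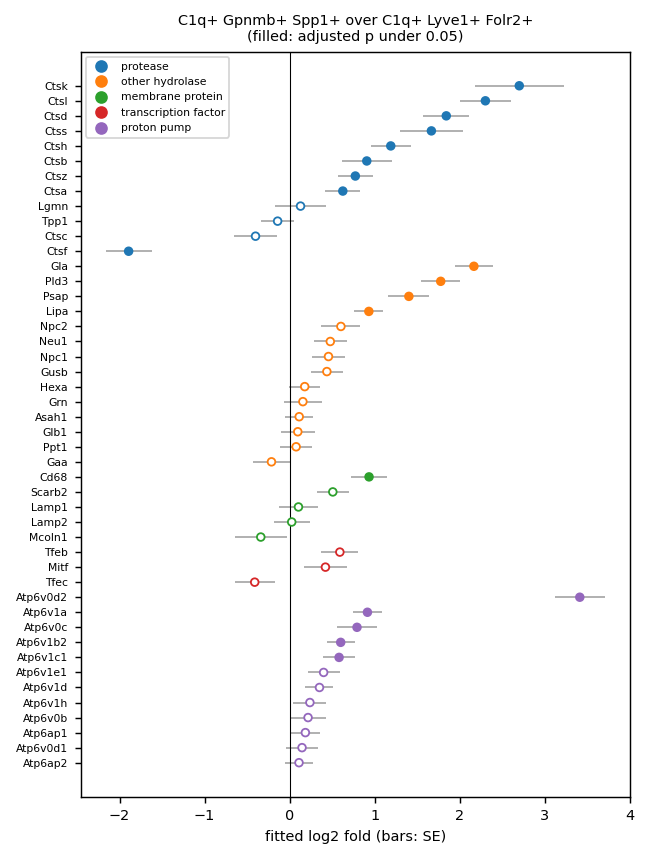
Fitted log2 fold (x axis, bars show the standard error) of the 46 genes in C1q+ Gpnmb+ Spp1+ over C1q+ Lyve1+ Folr2+ macrophages, coloured by role, with filled points for an adjusted p under 0.05. Atp6v0d2, the proteases Ctsk and Ctsl, and Gla reach furthest to the right, and Ctsf is the one filled point on the left.

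Proteases made up 8 of the 18, with a median log2 fold of 0.84 over all 12. Ctsl read 1679 and 1955 CPM in the Gpnmb+ Spp1+ cells of P10-MI_vehicle and P10-MI_SB225002, and 381 and 395 in the Lyve1+ Folr2+ cells, a log2 fold of 2.30 ± 0.30 (SE, adjusted p = 5.3e-07, edgeR). Ctsd read 4705 and 4584 against 1166 and 1709.6 (1.84 ± 0.27, adjusted p = 4.1e-06, edgeR), and Ctss 2624 and 2942 against 850.0 and 898 (1.67 ± 0.37, adjusted p = 0.0013, edgeR). In each case both libraries lay above both values of the other subset. Ctsk had a log2 fold of 2.70 ± 0.52 (adjusted p = 0.00031, edgeR), but from 7 and 42 UMIs against 3 and 3.

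Ctsf went the other way. It read 14.5 and 8.28 CPM in Gpnmb+ Spp1+ cells and 42.1 and 47.0 in Lyve1+ Folr2+ cells (-1.89 ± 0.27, adjusted p = 3.5e-06, edgeR). This call is lost without P10-MI_SB225002, in a fit that leaves 1 Gpnmb+ Spp1+ sample. Lgmn did not pass the test, at 1611 and 1621 against 1433 and 1723 CPM, and nor did Ctsc or Tpp1.

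Among the other hydrolases Gla (71.6 and 59.7 against 13.7 and 16.6 CPM, log2 fold 2.17 ± 0.22, adjusted p = 4.1e-09, edgeR), Pld3, a lysosomal nuclease (226 and 225 against 73.1 and 69.7), Psap (3524 and 3347 against 1286 and 1378) and Lipa, the acid lipase that frees cholesterol from its esters, were higher. Of the pump, 5 of 12 genes were higher. Atp6v0d2 read 49.8 and 93.9 CPM against 9.38 and 6.08 (3.41 ± 0.30, adjusted p = 8.7e-11, edgeR), and Atp6v1a 365 and 347 against 219 and 195 (0.91 ± 0.17, adjusted p = 0.00019, edgeR). The other 3, Atp6v0c, Atp6v1b2 and Atp6v1c1, did not pass with no composition scaling, nor did the proteases Ctsa and Ctsb. Gpnmb+ Spp1+ cells were the deeper ones, with median counts per cell of 10088.5 and 8047 against 6135 and 5624.

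The 3 transcription factors did not pass this test. Mitf read 206 and 164 CPM against 170 and 118, Tfeb 27.0 and 27.7 against 23.0 and 17.8, and Tfec 40.5 and 30.3 against 50.6 and 51.1. C1q-low cells with the Gpnmb and Spp1 markers, 27 and 120 in the 2 MI libraries, carried the 46 genes at 27215 and 32841 CPM, and Atp6v0d2 at 239 and 209. These C1q-low cells were in the fit but in neither group compared.

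Against Ly6c2+ monocytes, 13 of the 46 genes were higher in C1q+ macrophages, where 14.3% of 10967 genes were, and 3 lower, where 12.4% were. The median log2 fold was 0.11 for the 46 genes and 0.08 for all genes. Proteases and other hydrolases gave 12 of the 13. Lgmn read 1295, 1347 and 1601 CPM in macrophages and 192, 269 and 430.3 in monocytes (log2 fold 2.17 ± 0.32, adjusted p = 2.5e-06, edgeR), and Tpp1 202, 218 and 210.3 against 5.64, 81.9 and 72.0 (1.64 ± 0.23, adjusted p = 1.8e-06, edgeR). Ctsf, at 1819 UMIs in all macrophages, had 1 UMI in monocytes, a ratio of 112 with a counting interval of 20.01 to 4413. Grn, Hexa (a subunit of beta-hexosaminidase), Pld3 and Ctsb were also higher, and Ctss was not, at 896, 1162 and 1691 against 733, 1341 and 1305 CPM.

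The 3 genes lower in macrophages were Tfeb (28.8, 25.6 and 28.2 against 50.7, 47.6 and 37.7 CPM, log2 fold -0.78 ± 0.22, adjusted p = 0.0064, edgeR), Atp6v1b2 and Psap. With no composition scaling 17 were higher (17.8% of all genes) and 1 lower (9.7%), Tfeb. Without P10-MI_vehicle fewer passed, and 0 as lower, in a fit of fewer samples. The median log2 fold was then 0.06 for the 46 genes and 0.14 for all genes. With all 3 libraries and the scaling, the 12 pump genes had a median log2 fold of -0.28, with Atp6v0d2 higher and Atp6v1b2 lower.

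**Figure D4:**
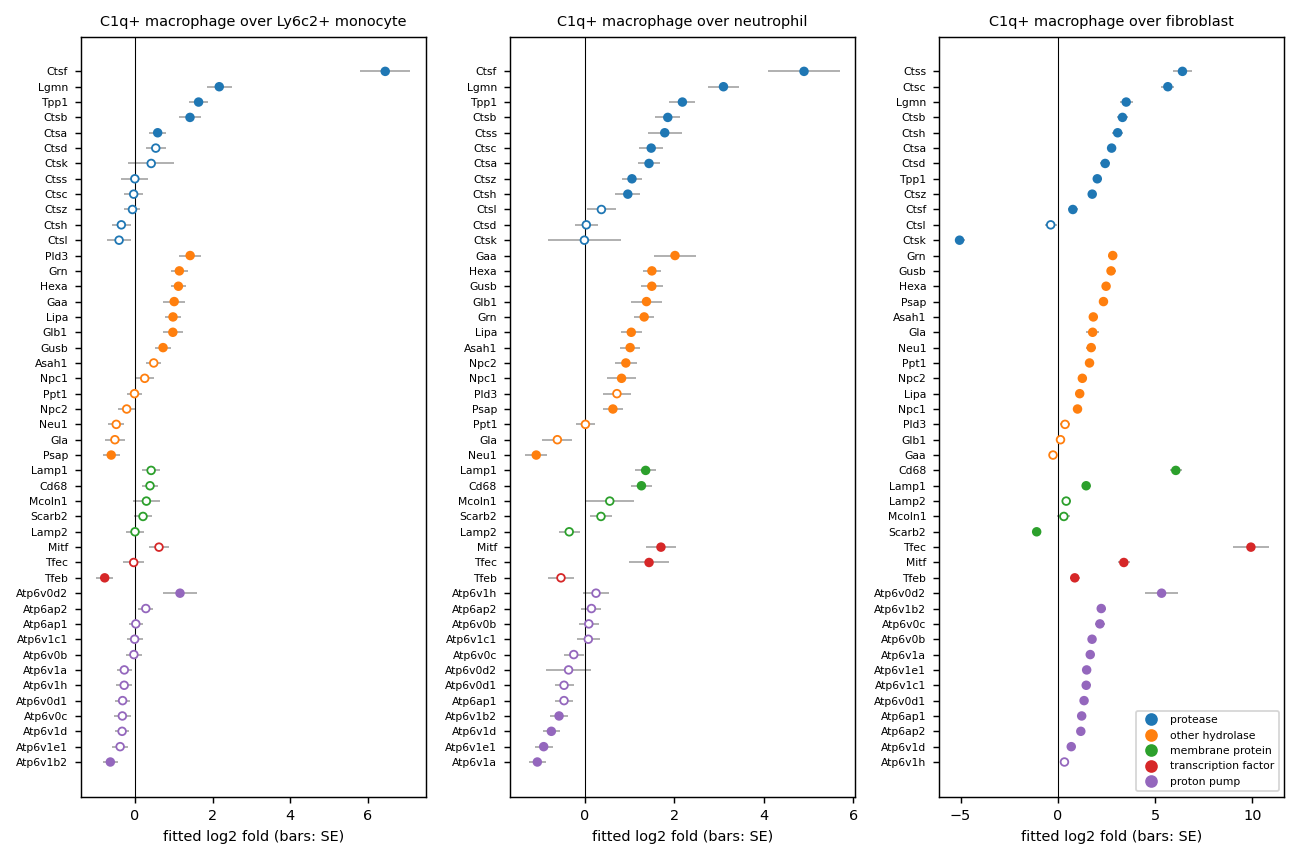
Fitted log2 fold (x axis, bars show the standard error) of the 46 genes in C1q+ macrophages over Ly6c2+ monocytes, neutrophils and fibroblasts, coloured by role, with filled points for an adjusted p under 0.05. Ctsf and Lgmn lead the first and second panels, and Ctsk and Scarb2 are the filled points on the left of the third and filled pump genes on the left of the neutrophil panel lie above 0 with no composition scaling.

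The neutrophil comparison depends on scaling. S100a8 and S100a9 alone took 22.1% to 29.4% of neutrophil UMIs, and dropping the composition scaling moved the median log2 fold of all genes from 0.41 to 1.48. With the scaling, 23 of the 46 genes were higher in macrophages and 5 lower (25.5% and 20.4% of all genes), and without it 38 were higher and 0 lower (62.2% and 8.64% of all genes). Genes higher under both included Ctsf, with 1 UMI in neutrophils (ratio 67.4, counting interval 12.1 to 2663), Lgmn (1295, 1347 and 1601 against 4.23, 93.3 and 125 CPM, log2 fold 3.10 ± 0.34, adjusted p = 8.8e-09, edgeR) and Tpp1 (2.18 ± 0.29, adjusted p = 2.75e-07, edgeR). The 5 lower were Neu1, a sialidase, and the V1 subunits Atp6v1a, Atp6v1e1, Atp6v1d and Atp6v1b2. Atp6v1a read 178, 227 and 239 CPM in macrophages and 178, 218 and 221 in neutrophils, with a log2 fold of -1.06 with the scaling and 0.06 without, and all 5 lay above 0 without it. The median log2 fold was 1.46 for the 12 proteases and -0.42 for the 12 pump genes with the scaling, and 2.58 and 0.70 without.

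Of the types tested against C1q+ macrophages, fibroblasts gave the most higher genes with the composition scaling, but not without it. In C1q+ macrophages 37 of the 46 genes were higher, where 25.9% of all genes were, and 2 lower, where 28.3% were, and without the scaling the counts were again 37 (25.6%) and 2 (28.1%). Ctss (896, 1162 and 1691 against 3.74, 11.5 and 31.2 CPM, log2 fold 6.41 ± 0.48, adjusted p = 5.25e-13, edgeR), Cd68 and Ctsc stood furthest apart. Tfec had 0 UMIs in fibroblasts of all 3 libraries, so that its level was at least 47.0-fold higher in macrophages, against a floor of 3 UMIs over the group. Of the 12 pump genes, 11 were higher, with a median log2 fold of 1.47. The 2 lower genes were Ctsk (1.26, 3.48 and 4.46 against 82.2, 94.1 and 121 CPM, -5.05 ± 0.26, adjusted p = 6.1e-16, edgeR) and Scarb2, the receptor that carries glucocerebrosidase to lysosomes (117, 149 and 143 against 353, 309.5 and 222, -1.09 ± 0.21, adjusted p = 3.7e-05, edgeR).

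Of 57 other genes of the pathway, 53 were counted often enough in C1q+ macrophages. Of these, 4 stood at least 0.5 higher on the log2 scale after MI (Igf2r, Acp5, Sort1 and Sgsh, a heparan sulfatase) and 0 lower, where 4.23% and 2.68% of all genes did. With SB225002, 5 stood higher (Acp5, Igf2r, Slc15a3, Sort1 and Galns) and 1 lower (Ids), where 5.59% and 6.9% of all genes did. The 7 further V-ATPase subunits gave 0 past the limit in either direction in both steps, and 0 of the 2 cathepsin inhibitors with enough UMIs did, Cst3 at 2179, 2357 and 2344 CPM and Cstb at 485, 579 and 719. In macrophages over monocytes 16 of 53 were higher and 7 lower (14.3% and 12.4% of all genes). Fewer passed without P10-MI_vehicle, in a fit of fewer samples, with a median log2 fold of 0.40 against 0.14 for all genes. Over neutrophils 22 were higher and 10 lower (25.5% and 20.4%), and 41 and 2 with no composition scaling (62.2% and 8.64%). Over fibroblasts 31 were higher and 6 lower (25.9% and 28.3%). Fewer passed without P10-MI_vehicle, where the median log2 fold was 1.20 against 0.02 for all genes. In Gpnmb+ Spp1+ over Lyve1+ Folr2+ macrophages 15 were higher and 1 lower (6.68% and 6.62%), and 11 and 4 with no composition scaling (4.55% and 13.4%). Fewer were higher without P10-MI_vehicle or without P10-MI_SB225002, which each leave 1 Gpnmb+ Spp1+ sample. The median log2 fold was then 0.26 and 0.43, against -0.02 and -0.06 for all genes.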

How the data were processed

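Single-cell RNA was sequenced from 3 libraries. The authors deposited raw counts of UMIs for each barcode and gene, from BMKGENE DG1000 libraries. The submitters' processing notes name Seurat 4.1.0 and mm10; the aligner and annotation are not given in the sources used here. Cells were filtered and gated in Python 3.11.15 with NumPy 2.4.6, SciPy 1.17.1 and pandas 2.3.3. No doublet caller was run. Cells meeting the Ly6c2+ monocyte gate with the neutrophil or Ace+ monocyte gate were counted in the latter. Cells meeting other combinations of type gates, or missing the C1q limits, were left out. C1q+ cells meeting several subset gates were counted with those meeting no subset gate. Libraries, 1 per condition, were compared as CPM with exact 95% intervals of the ratio, among genes with at least 100 UMIs over both. Cell types with at least 10 cells in a library were compared on summed counts with edgeR 4.0.16 (quasi-likelihood, TMM, library as block, adjusted p under 0.05) in R 4.3.3, and DESeq2 1.42.0 as an alternative. The libraries are the replicates of that test, 3 for each type contrasted but 2 for C1q+ Gpnmb+ Spp1+ cells. The spread was estimated in 1 fit over all gated types, with 12 residual degrees of freedom, or 17 for the subset comparison. The p-values therefore rest on the spread across conditions pooled over the types fitted, not on that of the contrasted pair alone. Ace+ monocytes and C1q-low Gpnmb+ Spp1+ cells were also in the fits, from 2 libraries each, and T/NK cells were too few to enter. Both procedures were run on simulated counts with known folds. Those for the ratios held no spread between libraries. Those for the cell-type test gave all types 1 shared profile apart from the changed genes, so they do not bear on composition scaling. UMI totals were 21655083, 26121162 and 31400723 over kept cells. The 46 genes, the pathway lists and the gates were chosen with earlier results of these data known. Genes named were the 4 highest and 4 lowest per comparison, Atp6v0d2, Ctsk, Mcoln1 and the transcription factors, and others chosen for their role after values were seen.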

Additional observations from a re-analysis of the deposited data

How the results depend on the processing

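Sums of the 46 genes over all kept cells and in C1q+ macrophages stayed above 0 under every alternative run. Over all kept cells, the log2 ratio for MI over sham was 0.10 and went to 0.174 with TMM scaling, 0.146 with DESeq2 size factors, 0.0277 as a difference of mean log-normalized values, 0.112 without the deepest 6% of cells and 0.25 with cell types weighted to P10-MI_vehicle, which used 7 of 10 types (9 of 10 for SB225002) and so does not cover the same cells. For SB225002 over vehicle it was 0.35 and went to 0.407, 0.409, 0.286, 0.319 and 0.326 in the same order, 0.366 with a mitochondrial share under 5% and 0.324 with cells thinned to 1000 UMIs. In C1q+ macrophages the MI ratio of 0.24 went to 0.264, 0.268, 0.178, 0.228 and 0.179 in the first order, 0.272 with the mitochondrial limit and 0.209 thinned, and the SB225002 ratio of 0.27 to 0.325 (TMM), 0.324 (size factors), 0.259 (log-normalized), 0.161 (weighted), 0.245 (mitochondrial limit) and 0.281 (thinned). Counts past 0.5 depend more on the setting. As log-normalized differences, which are compressed by their scale, 0 (MI) and 1 (SB225002) stood higher over all kept cells and 0 and 1 in C1q+ macrophages, with 0 lower. Thinned, 2 stood higher after MI in both populations and 0 lower with SB225002. Weighted, 3 stood higher after MI over all kept cells and 0 with SB225002 in C1q+ macrophages.

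Between cell types, the count lower in macrophages than monocytes was 1 with no filter, 1 with the mitochondrial limit, 0 thinned, 1 with no composition scaling and 0 to 2 with a library left out, and the count higher was 8 to 14 with a library left out. Against neutrophils the lower count was 3 with no filter, 1 of 34 thinned and 2 to 5 with a library left out. With no composition scaling 0 were lower and 38 higher (8.64% and 62.2% of all genes). Between Gpnmb+ Spp1+ and Lyve1+ Folr2+ cells, 0 were lower when thinned and 0 to 1 with a library left out, and 6 to 24 were higher.

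Signs turned for genes that did not pass the test, and, with no composition scaling against neutrophils, for Neu1 (0.0274), Atp6v1a (0.0637), Atp6v1e1 (0.20), Atp6v1d (0.37) and Atp6v1b2 (0.55), which had passed, and for Atp6v0d2 (0.73), Tfeb (0.58) and Ctsk (1.06). Against monocytes Tfec went from -0.04 to 0.0475 (size factors), 0.0390 (no filter), 0.0117 (no library block), 0.106 (no composition scaling) and -0.200 to 0.0315 (libraries left out), and Ctss from -0.01 to 0.0612 (size factors), 0.0416 (DESeq2), 0.120 (no filter), 0.242 (mitochondrial limit), 0.0742 (thinned), 0.164 (no composition scaling) and -0.0939 to 0.142 (libraries left out). Ctsk ranged from -0.154 to 1.85 there, and against neutrophils it read 0.0850 (size factors), 0.0995 (no filter) and -0.474 to 0.639 (libraries left out). With libraries left out, Ctsd ranged from -0.0445 to 0.186 against neutrophils, Ctsl from -0.700 to 0.0344 and Gaa from -0.336 to 0.0520 against fibroblasts, and Lgmn from -0.159 to 0.285 and Grn from -0.146 to 0.395 between the macrophage subsets, where they read -0.0693 and -0.0435 with no composition scaling. The cause of these turns was not tested. No paired analysis was possible because each condition has 1 library, so that the replicate number pairs nothing. The library was the block between cell types. Without it the median log2 fold of the 46 genes was 0.09, 0.59, 1.68 and 0.52 against monocytes, neutrophils, fibroblasts and between the subsets. Over all genes it was 0.07, 0.40, -0.01 and -0.03.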

Other observations

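Igf2r, the receptor that delivers mannose-6-phosphate-tagged hydrolases to lysosomes, read 1.53 CPM in C1q+ macrophages of P10-sham_vehicle (28 UMIs), 24.8 in P10-MI_vehicle (392 UMIs) and 43.4 in P10-MI_SB225002 (769 UMIs). The log2 ratio of Igf2r was 4.02 (95% counting interval 3.47 to 4.63) for MI over sham and 0.81 (0.63 to 0.99) for SB225002 over vehicle. Acp5, the tartrate-resistant acid phosphatase of osteoclasts, read 11.1, 22.8 and 46.4. M6pr, the other receptor for the same tag, read 158, 165 and 196. With 1 library per condition none of these differences was tested. Within C1q+ Gpnmb+ Spp1+ cells, 92 and 407 in number in the MI libraries, Igf2r read lower with SB225002, by the values given below. No ratio with the subsets at equal shares is given for Igf2r, and the part of the subset shares in its ratio was not tested. Igf2r overlaps the antisense transcript Airn, and how strand was used in counting is not given in the sources used here.

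Between macrophage subsets the difference was tested. Igf2r was higher in C1q+ Gpnmb+ Spp1+ than in C1q+ Lyve1+ Folr2+ cells (135 and 91.3 against 8.04 and 11.8 CPM in P10-MI_vehicle and P10-MI_SB225002, log2 fold 4.07 ± 0.53, adjusted p = 4.5e-07, edgeR), and so was Acp5 (70.5 and 123 against 7.77 and 8.51, 3.58 ± 0.31, adjusted p = 8.7e-11, edgeR). Igf2r was lower in C1q+ macrophages than in fibroblasts (-4.02 ± 0.47, adjusted p = 9.1e-09, edgeR).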
